A study of Mus musculus with 66 samples.

Results

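The collagen chain genes of the mouse were followed through hippocampal RNA of C57BL/6 mice injected with brain extract. They were taken as every row of the deposited expression tables whose symbol has the form of a collagen chain (Col, a type number, a and a chain number). This gave 44 genes of the 55421 rows, the same 44 in both tables: 11 chains of fibrillar collagens, 8 chains of basement membrane collagens and 25 other chains. The study, titled as one of age-related expression changes in seeded tauopathy, compared mice that had received extract from Alzheimer's disease brain (AD) with mice that had received control extract (Ctrl), at 1, 3 and 5 months post injection (mpi). The labels call one cohort 12mo and the other 3mo, and do not say whether that is the age at injection or at collection. In the 12mo cohort there were 6 AD and 5 Ctrl libraries at 1 mpi, 6 AD and 6 Ctrl at 3 mpi, and 7 AD and 7 Ctrl at 5 mpi. In the 3mo cohort there were 6 AD and 5 Ctrl libraries at 1 mpi, 5 AD and 5 Ctrl at 3 mpi, and 3 AD and 5 Ctrl at 5 mpi. All 12 groups were injected, so none is an uninjected baseline. The labels name neither a transgene nor the donors of the extracts. Whether the libraries of a group came from different animals is not stated either, and p-values therefore reflect library-to-library spread, which may be technical. Sex-linked genes differed widely between libraries within every group. Their mean on the scale log2(value + 1) ran from 2.05 to 5.13 in the 12mo AD group at 1 mpi. Sex entered only as a covariate in alternative fits. The 66 libraries held 42462638 to 65907005 reads assigned to genes. Levels are given as the deposited values, reads scaled to the size of the library (scaled RPM).

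Collagens are extracellular proteins built from chains wound into a triple helix, and a chain is named by its type and its number. Fibrillar collagens (types I, II, III, V, XI, XXIV and XXVII) assemble into fibrils that bear load in connective tissue. Type IV chains form the network of every basement membrane, with types XV and XVIII at its border to the surrounding matrix. The remaining types decorate fibrils, form beaded filaments or hexagonal networks, or stay anchored in a cell membrane. Brain parenchyma holds little fibrillar collagen. In the brain, fibroblasts of the meninges and of large vessels are the known makers of types I and III, endothelial cells and pericytes of the type IV chains of the vessel wall, and the choroid plexus carries basement membranes of its own.

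Of the 44 genes, 42 lie on autosomes and 2 on the X chromosome, over 15 chromosomes in all. Several type IV chains lie head to head: in the annotation of the build GRCm38 the starts of Col4a1 and Col4a2 are 21 bases apart, those of Col4a3 and Col4a4 72 bases apart and those of Col4a5 and Col4a6 1309 bases apart, each pair on opposite strands. Promoter windows, 250 bases before to 50 after the annotated start, were found for 35 of the 44 genes (38 windows) in RefSeq on GRCm38.p6. Col1a1, Col2a1, Col4a3, Col5a2, Col9a3, Col12a1, Col14a1, Col22a1 and Col26a1 had none there. The 5 windows below belong to chains whose levels moved together between libraries: the paired type IV chains and both chains of type VIII collagen. They are printed 5′ to 3′ on the strand of the gene, with capitals for matches on either strand to a GC box (GGGCGG) or a CCAAT box (CCAAT). A match is a match of letters.
Col4a1, chr8:11312777-11313076, minus strand: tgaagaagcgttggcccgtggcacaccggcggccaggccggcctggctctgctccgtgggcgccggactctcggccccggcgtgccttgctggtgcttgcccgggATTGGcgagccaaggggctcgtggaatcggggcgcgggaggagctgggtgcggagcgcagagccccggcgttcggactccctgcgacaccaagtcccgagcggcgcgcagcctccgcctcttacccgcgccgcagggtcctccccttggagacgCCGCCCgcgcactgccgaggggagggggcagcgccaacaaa
Col4a2, chr8:11312555-11312854, plus strand: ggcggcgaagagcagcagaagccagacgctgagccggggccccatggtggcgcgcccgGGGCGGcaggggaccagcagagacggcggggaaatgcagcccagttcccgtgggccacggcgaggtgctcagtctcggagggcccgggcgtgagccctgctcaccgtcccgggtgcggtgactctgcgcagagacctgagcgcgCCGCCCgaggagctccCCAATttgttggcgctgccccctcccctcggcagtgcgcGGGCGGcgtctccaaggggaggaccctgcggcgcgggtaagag
Col4a4, chr1:82586800-82587099, minus strand: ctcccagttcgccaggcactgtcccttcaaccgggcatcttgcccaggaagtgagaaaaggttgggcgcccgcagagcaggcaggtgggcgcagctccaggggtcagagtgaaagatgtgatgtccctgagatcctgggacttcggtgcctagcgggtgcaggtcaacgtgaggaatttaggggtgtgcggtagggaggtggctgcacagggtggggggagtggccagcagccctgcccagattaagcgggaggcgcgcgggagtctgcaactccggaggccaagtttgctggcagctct
Col8a1, chr16:57754688-57754987, minus strand: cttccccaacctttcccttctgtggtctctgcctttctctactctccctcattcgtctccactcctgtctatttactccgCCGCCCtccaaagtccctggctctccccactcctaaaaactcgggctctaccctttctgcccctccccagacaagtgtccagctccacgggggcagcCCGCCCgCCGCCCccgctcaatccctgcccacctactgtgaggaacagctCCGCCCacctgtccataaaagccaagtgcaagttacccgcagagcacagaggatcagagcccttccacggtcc
Col8a2, chr4:126286544-126286843, plus strand: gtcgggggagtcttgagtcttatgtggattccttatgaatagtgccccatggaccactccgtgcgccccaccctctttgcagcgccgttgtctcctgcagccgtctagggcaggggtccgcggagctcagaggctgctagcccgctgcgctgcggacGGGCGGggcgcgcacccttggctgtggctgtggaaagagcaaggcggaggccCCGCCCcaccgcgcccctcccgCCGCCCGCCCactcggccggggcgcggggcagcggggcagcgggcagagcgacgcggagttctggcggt

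The Col4a1 and Col4a2 windows share 78 bases. The first held 1 GC box and 1 CCAAT box, and the second 3 GC boxes and 1 CCAAT box. The annotated start of Col4a3 falls at position 179 of the Col4a4 window, counted from its 5′ end, and that window held none of the motifs searched. Both type VIII windows held 4 GC boxes, overlapping matches counted, and no CCAAT box. Over the 38 collagen windows a GC box was found in 23 (60.53%), against 35.63% of all 32817 promoter windows of the same length. A CCAAT box was found in 13 (34.21%), against 37.39% of all windows, and a TATA box (TATAAA) in 5 (13.16%), against 13.62%. The letters GGATTA, the core bound by OTX-type homeobox factors, were in 0 of the 38 windows, against 7.063% of all.

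Single libraries stood apart. Replicate 1 of the 3mo AD group at 1 mpi and replicate 4 of the 3mo Ctrl group at 5 mpi had the highest thalamus scores (5.32 and 5.13, against at most 4.14 elsewhere). The first also had the highest Col1a1 of all libraries (53.5). In the 3mo groups at 1 mpi, AD replicates 3 and 6 and Ctrl replicates 1 and 3 had 53.5, 38.9, 95.1 and 84.1 scaled RPM of Inhba, against at most 16.8 in other 3mo libraries. Replicate 3 of those groups had 48.4 (AD) and 20.3 (Ctrl) of Col27a1, a minor fibrillar collagen, against at most 11.9 elsewhere. The 8 hippocampal neuron markers summed to 796.5 to 1171 in every library and none was at 0. Exons of other genes overlapped those of the collagens little, at most 6.07% (Col9a3 with Tcfl5, opposite strands) and 5.65% (Col4a3 with C430014B12Rik), and whether counting used strand is not stated in the labels.

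The collagen chains that led in hippocampus were not those of fibrils. Per kilobase of exon, the highest mean levels over the 66 libraries were those of Col9a3 (8.58 scaled RPM per kb), Col6a1 (8.24) and Col25a1 (8.20), followed by Col4a2 (6.78) and Col4a1 (6.17). The place of Col9a3 differed between groups: its group means ran from 2.67 to 15.3 per kb, and lay below those of Col25a1 (7.80 to 8.60 in all groups) in the 12mo AD group at 5 mpi, in all 12mo Ctrl groups and in both 3mo groups at 5 mpi. Col9a3 encodes a chain of type IX collagen, which sits on the surface of other fibrils, Col6a1 a chain of the beaded filaments of type VI, and Col25a1 a neuronal membrane collagen whose shed part is known as the collagenous component of amyloid plaques. These 5 genes held 48.3% of the summed level per kb of all 44, and the first 10 held 67.7%. The fibrillar genes with the highest level per kb were Col11a2 (3.05), Col1a2 (2.91) and Col1a1 (2.61). At the other end, Col10a1 (0.0632 per kb), a collagen of growing cartilage, Col24a1 (0.0690), Col28a1 (0.0823) and Col9a1 (0.104) had the lowest levels, and 24 of the 44 genes lay under 1 per kb. By class, the other collagens held 57.9% ± 5.2 of the summed level per kb, basement membrane chains 23.8% ± 2.9 and fibrillar chains 18.3% ± 3.4 (SD over 66 libraries).

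On GRCm38, Col9a3 (ENSMUSG00000027570.15) spans chr2:180597790-180622189 on the plus strand, Col6a1 (ENSMUSG00000001119.7) chr10:76708792-76726168 on the minus strand and Col25a1 (ENSMUSG00000058897.17) chr3:130131501-130599877 on the plus strand. Col8a1 (ENSMUSG00000068196.5) spans chr16:57624258-57754737 on the minus strand, and Col1a1 (ENSMUSG00000001506.10) chr11:94936224-94953042 on the plus strand.

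Members differed widely in how steady they were. Col25a1 was the one gene whose highest library was under 2 times its lowest: its values ran from 79.6 to 123.3 scaled RPM around a mean of 106.2, a coefficient of variation of 7.67%. For 21 genes the highest library was 2 to 5 times the lowest, for 7 it was 5 to 10 times and for 12 it was 10 times or more. The last set was led by Col17a1, a membrane collagen of skin (96.7 times), Col8a1, a chain of the hexagonal network collagen known from the cornea (38.4 times), and Col4a3, a type IV chain known from the kidney glomerulus (37.9 times). The lowest Col17a1 value was 0.0422 scaled RPM, or 2 reads, so its ratio rests on a value near the floor. Col10a1, Col24a1 and Col28a1 were listed at 0 in at least 1 library. All 44 genes passed the filter on low values in both cohorts.

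Levels of single libraries show the contrast. Col8a1 in the 12mo cohort had a lowest, median and highest value of 15.6, 37.4 and 56.8 in AD libraries at 1 mpi, against single values of 3.14, 5.54, 11.8, 20.1 and 31.4 in Ctrl libraries. At 5 mpi the 12mo values were 3.21, 10.9 and 50.8 in AD and 2.48, 11.1 and 29.4 in Ctrl libraries (lowest, median and highest). Within every group of the 12mo cohort Col8a1 thus spread several times over, and AD and Ctrl libraries overlapped. Col4a1 had 41.6, 47.8 and 54.4 in 12mo AD libraries at 1 mpi, against 35.3, 39.8, 44.2, 48.5 and 54.0 in Ctrl libraries. Col25a1 had 79.6, 103.1 and 116.0 in the same AD libraries, against 96.4, 101.1, 107.3, 108.5 and 108.6 in Ctrl. For both genes the groups overlapped and the spread within a group was narrow.

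Col1a1, a chain of the main fibril collagen of skin and bone, had a lowest, median and highest value of 6.33, 21.4 and 39.7 in 12mo AD libraries at 1 mpi, against 12.3, 18.1, 23.8, 24.4 and 26.7 in Ctrl libraries. At 5 mpi in the 3mo cohort it had 3.91, 7.77 and 14 in AD, against 14.6, 16.2, 16.5, 19.4 and 19.99 in Ctrl libraries. The groups overlapped in the first case and not in the second. Col3a1, the chain of type III collagen that joins type I in fibrils of vessels, had 1.40, 2.77 and 6.59 in the same 3mo AD libraries, against 7.68, 8.28, 8.89, 9.05 and 10.9 in Ctrl libraries, again without overlap; neither gene passed the test described further on. Col6a1 had 27.3, 35.3 and 45.9 in these AD libraries, against 28.5, 34.0, 39.8, 42.3 and 45.3 in Ctrl, and there the groups overlapped.

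**Figure D1:**
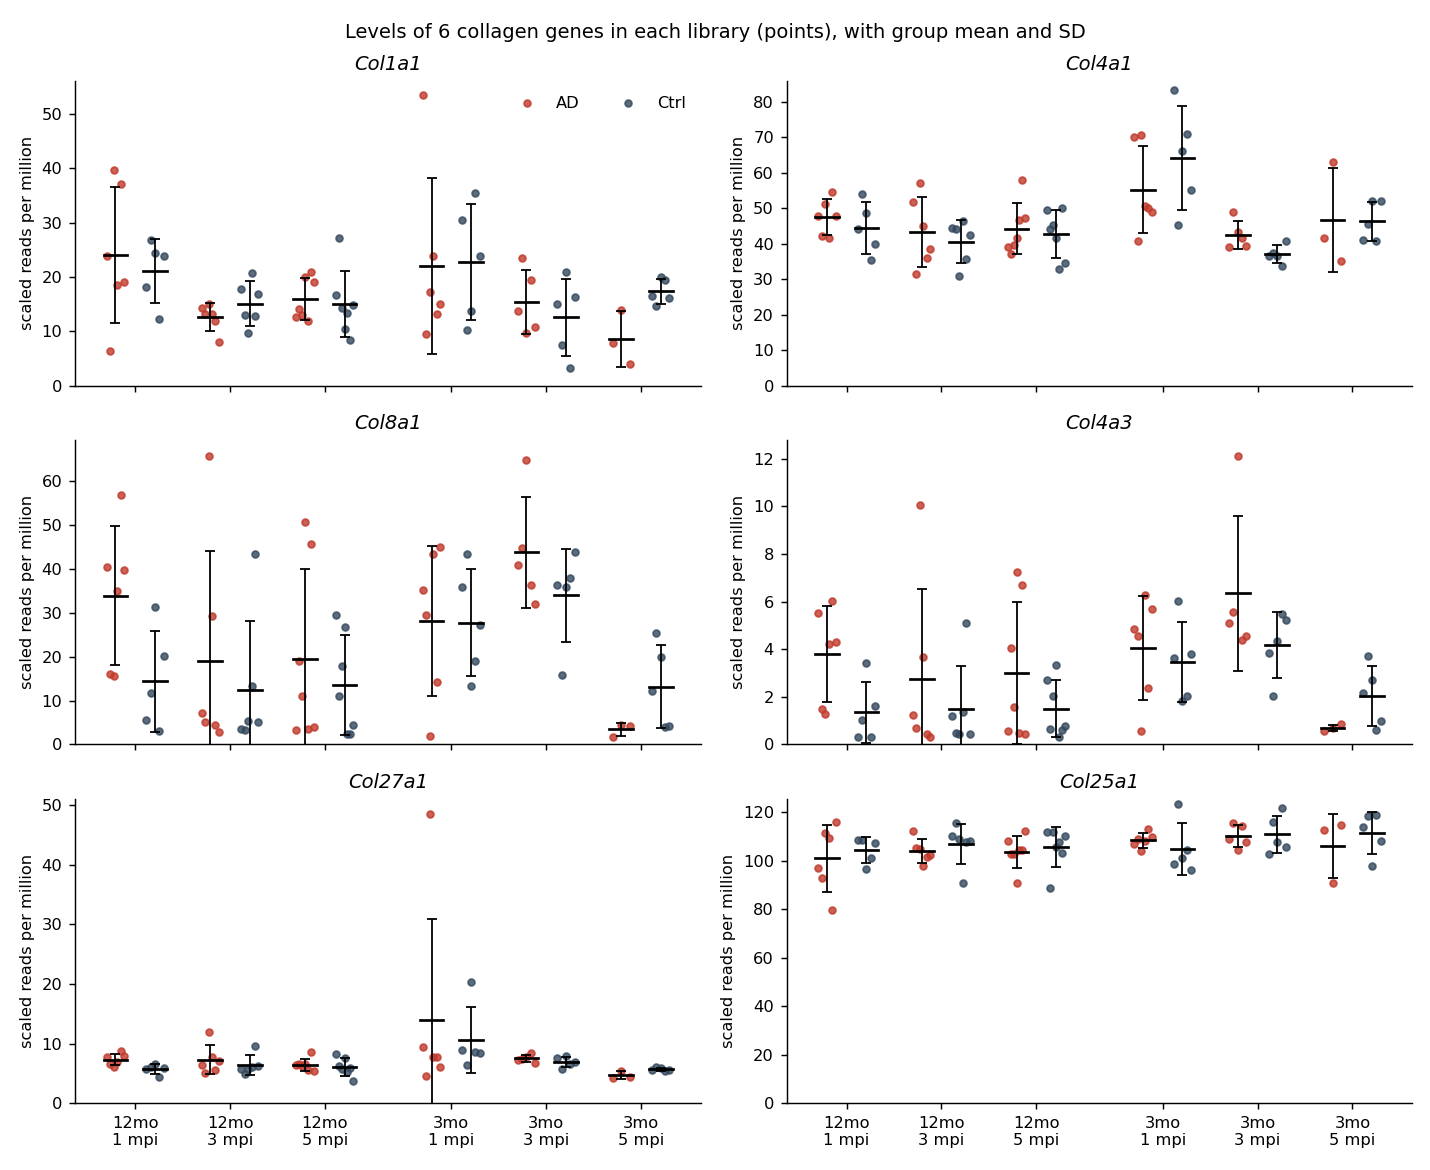
Deposited levels (scaled RPM, linear axes from 0) of 6 collagen genes in every library, by cohort, time after injection (mpi) and extract; points are libraries, horizontal bars group means and error bars SD, which end at the axis where they would pass below 0. Col8a1 and Col4a3 spread over most of their range within groups, Col25a1 stays between 79.6 and 123.3, and Col27a1 reaches 48.4 in a single 3mo AD library at 1 mpi.

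Several of the genes that varied most followed marker genes of tissues that border the hippocampus. Each collagen was set against the mean of lists of marker genes in the same library, both as deviations from the group mean on the scale log2(value + 1), so that group differences play no part. For 8 collagens and 6 lists in each cohort these relations were tested, 96 in all, with Benjamini-Hochberg adjustment over the 48 of a cohort, and 45 passed an adjusted p of 0.05 for Pearson's r. Deviations were permuted over all libraries of a cohort and not within groups, without allowance for the group means removed. The p-values may therefore be too small, which matters most for relations near the threshold. All values of a library share its depth and its dissection. In bulk RNA, fewer cells of a type and less RNA per cell cannot be told apart.

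Col8a1 followed 14 choroid plexus markers (among them Ttr, Kl and Folr1) most closely, with r = 0.980 and rho = 0.960 in 37 libraries of the 12mo cohort and r = 0.962 and rho = 0.961 in 29 libraries of the 3mo cohort. Each had a permutation p of 1e-05, the smallest that 100000 permutations allow, and an adjusted p of 3.69e-05 (12mo) and 5.3e-05 (3mo). Without the 2 libraries farthest from the median, r was 0.975 and 0.944. Of the whole family, 6 genes had an r over 0.8 with the choroid plexus list in both cohorts: Col4a3, Col4a4, Col8a1, Col8a2, Col9a3 and Col17a1, with r from 0.913 to 0.985 in 12mo and from 0.867 to 0.968 in 3mo libraries. This set was chosen by that r, so its values are a description. Their r with fibroblast markers was lower, 0.340 to 0.602 in 12mo and 0.0860 to 0.340 in 3mo libraries. No choroid plexus marker was at 0 in any library, and their summed level ran from 271.6 to 14708 scaled RPM.

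Type I and III genes followed fibroblast (12 genes, among them Dcn, Lum and Ogn), mural and endothelial markers. With fibroblast markers, r for Col1a1 was 0.900 (rho 0.857) in 12mo and 0.897 (rho 0.933) in 3mo libraries, and for Col3a1 0.914 (rho 0.895) and 0.798 (rho 0.847), each with a permutation p of 1e-05. Without the 2 farthest libraries, r was 0.860 and 0.890 for Col1a1 and 0.877 and 0.801 for Col3a1. With mural markers r was 0.732 (12mo) and 0.901 (3mo) for Col1a1 and 0.759 and 0.823 for Col3a1, and with endothelial markers 0.724 and 0.796 for Col1a1 and 0.742 and 0.692 for Col3a1, all past the adjusted threshold. In the 3mo cohort the r with mural markers was thus the higher one for both genes. The fibroblast and mural lists themselves correlated, with r = 0.737 in 12mo and 0.936 in 3mo libraries. The r of Col1a1 and Col3a1 with choroid plexus markers was 0.259 and 0.296 in 12mo and -0.024 and -0.089 in 3mo libraries, none past the adjusted threshold. With thalamus markers r was 0.566 for Col1a1 and 0.473 for Col3a1 in 3mo libraries, both past the adjusted threshold. In 12mo libraries it was 0.23 for each gene, and neither passed. Col18a1, the source of endostatin, had an r over 0.7 with endothelial markers (0.707 in 12mo, 0.863 in 3mo) and with mural markers (0.783 in 12mo, 0.860 in 3mo). In the 12mo cohort it also followed choroid plexus markers (r = 0.784), and in the 3mo cohort that relation did not pass (r = 0.337). The r of Col18a1 with thalamus markers was 0.436 in 3mo libraries, which passed, and 0.264 in 12mo libraries, which did not. Counting every member, 7 genes had an r over 0.7 with the fibroblast or the mural list in both cohorts: Col1a1, Col1a2, Col3a1, Col4a5, Col4a6, Col9a2 and Col18a1, a set likewise chosen by its r.

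The most abundant type IV genes were less tied to any list. Col4a1 had an r of 0.612 (12mo) and 0.458 (3mo) with 12 endothelial markers, and of 0.490 and 0.550 with mural markers, all past the adjusted threshold. In the 3mo cohort the relation with endothelial markers rested on few libraries: r was 0.233 without the 2 farthest. Col4a2 had an r of 0.338 and 0.274 with endothelial markers, which did not pass. In 12mo libraries this relation did pass by Spearman's rho (0.398, adjusted permutation p = 0.0316). It also passed there on recovered reads with a pseudocount of 0.1 (r = 0.413, adjusted permutation p = 0.0213). With interneuron markers both genes had a negative r past the adjusted threshold in 12mo libraries, -0.49 for Col4a1 and -0.45 for Col4a2. In 3mo libraries these r were 0.013 and 0.038 and did not pass. Col8a1 (-0.71), Col18a1 (-0.65) and Col6a1 (-0.57) also passed with that list in 12mo libraries. Col25a1 had no relation past the threshold in the 12mo cohort, with r between -0.241 and 0.05. In the 3mo cohort it had a negative r with mural (-0.555, adjusted permutation p = 0.0072), endothelial (-0.458, adjusted permutation p = 0.0316) and fibroblast markers (-0.428, adjusted permutation p = 0.0433). All 3 calls were lost on recovered reads with a pseudocount of 0.1, with adjusted permutation p of 0.0794 (mural), 0.144 (endothelial) and 0.257 (fibroblast). By Spearman's rho the adjusted permutation p were 0.0335, 0.0806 and 0.0956 in the same order. Of all 44 genes, 13 had no positive r over 0.4 with the choroid plexus, fibroblast, endothelial, mural, interneuron or thalamus list in either cohort: Col2a1, Col4a2, Col6a4, Col6a5, Col7a1, Col9a1, Col11a1, Col19a1, Col20a1, Col22a1, Col24a1, Col25a1 and Col28a1. Of these 9 had an r under -0.4 with at least 1 list in a cohort, such as Col6a5 (-0.597) and Col7a1 (-0.593) with interneuron markers in 12mo libraries. The other 4, Col2a1, Col9a1, Col24a1 and Col28a1, had none in either direction.

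**Figure D2:**
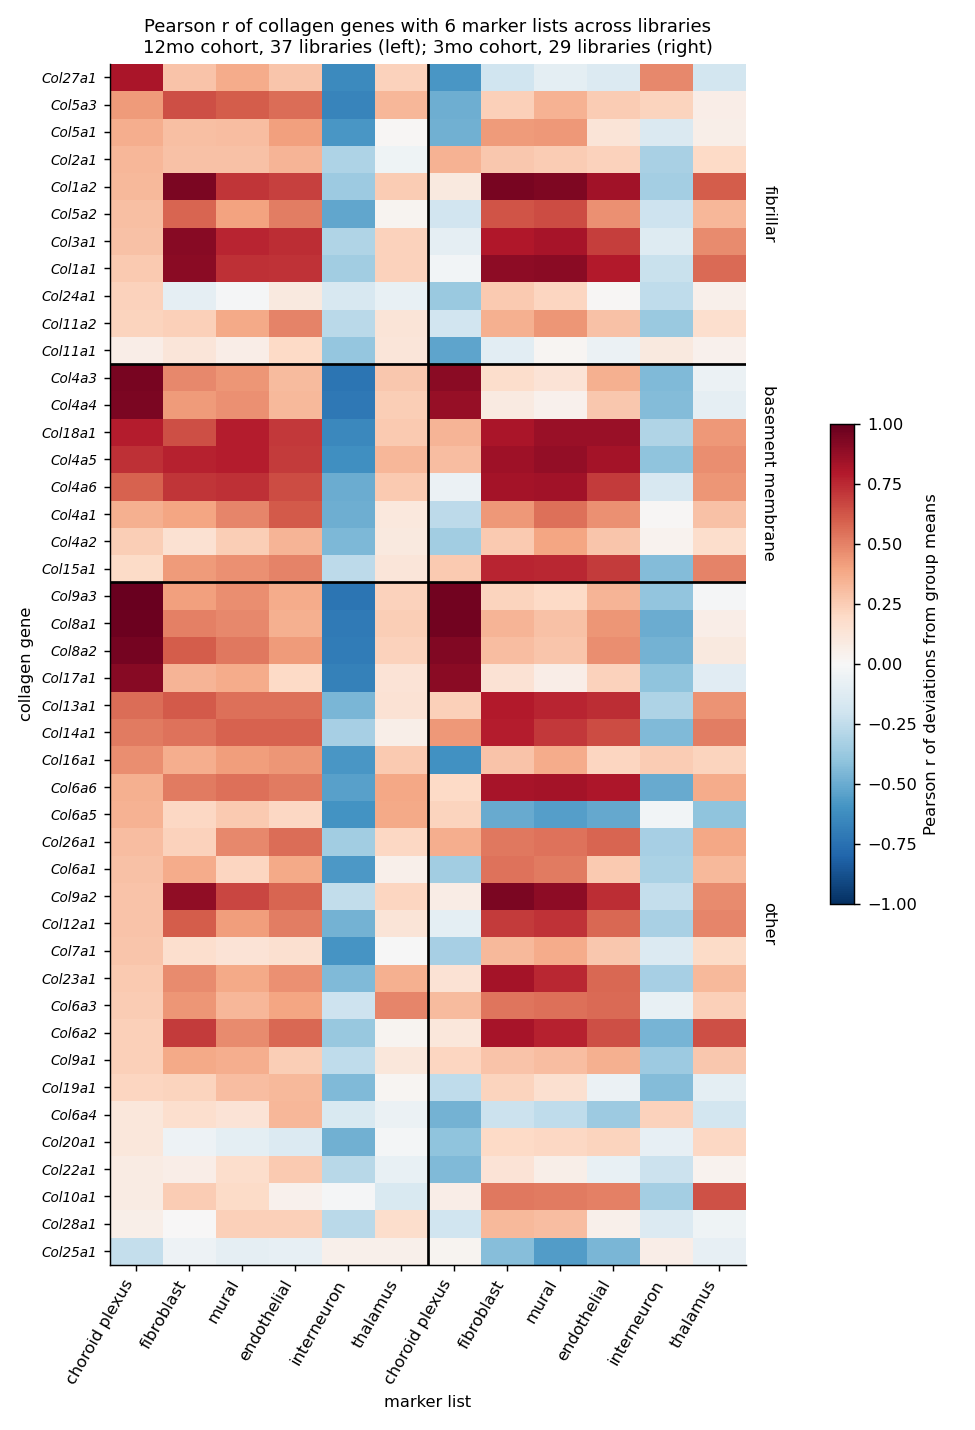
Pearson r between each of the 44 collagen genes (rows, by class, sorted within a class by the 12mo choroid plexus column) and 6 marker lists (columns) over 37 libraries of the 12mo cohort and 29 of the 3mo cohort, as deviations from group means on the log2 scale. Col9a3, Col8a1, Col8a2, Col17a1, Col4a3 and Col4a4 are dark in the choroid plexus column of both cohorts, and Col1a1, Col1a2, Col3a1 and Col9a2 in the fibroblast column.

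**Figure D3:**
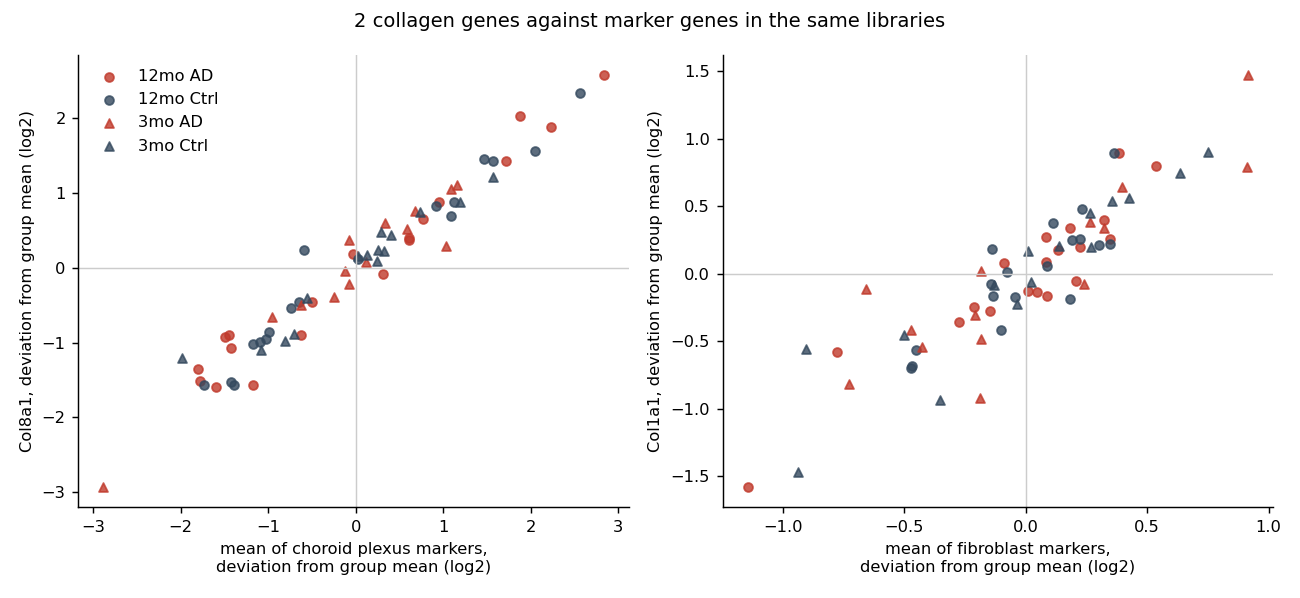
Deviation from the group mean (log2) of Col8a1 against choroid plexus markers (left) and of Col1a1 against fibroblast markers (right), 1 point per library, red for AD and dark blue for Ctrl libraries, circles for 12mo and triangles for 3mo. The points follow a line in both panels (r = 0.980 in 12mo and 0.962 in 3mo for Col8a1, 0.900 and 0.897 for Col1a1).

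Several chains that assemble into the same protein varied together. The r over libraries was 0.968 in 12mo and 0.963 in 3mo libraries for Col8a1 with Col8a2, and 0.950 and 0.963 for Col1a1 with Col1a2, the chains of type I collagen. Of the head-to-head pairs, Col4a3 with Col4a4 had an r of 0.958 and 0.959, Col4a1 with Col4a2 of 0.862 and 0.927, and Col4a5 with Col4a6 of 0.792 and 0.851. Neighbours farther apart varied: Col3a1 and Col5a2, whose starts are 191744 bases apart, had 0.602 and 0.818, and Col6a1 and Col6a2, 102538 bases apart, 0.668 and 0.699. Col6a4, Col6a5 and Col6a6 lie in a row on chromosome 9, yet Col6a5 with Col6a6 had 0.555 in 12mo and -0.275 in 3mo libraries. Col9a3 and Col20a1, both on chromosome 2, had 0.165 and -0.430. These pair values are descriptions and were not tested.

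AD extract changed no collagen gene past the threshold in either cohort. With limma over all genes tested and Benjamini-Hochberg adjustment, 0 of 44 had an adjusted p under 0.05 at 1, 3 or 5 mpi or in the mean of the 3 times, in 12mo or 3mo mice. Of all genes tested, the same rule called 0.00996% for the 12mo mean, 0.00498% at 1 mpi, 0% at 3 mpi and 0.0548% at 5 mpi in the 12mo cohort, and 0% in each of the 4 comparisons of the 3mo cohort. The difference of the AD effects between the cohorts (12mo minus 3mo) also called 0 of 44, with 0% of all genes. At an unadjusted p under 0.05, the 12mo mean had 10 collagens (9 higher and 1 lower in AD), against 15.3% of all genes, and the 3mo mean had 1, against 3.95%. The same count of 0 was found in all 316 fits under other settings of these 9 comparisons, edgeR and DESeq2 included. The half-width of the 95% interval of the fold change had a median of 0.214 (log2) over the 44 genes in the 12mo mean and 0.275 in the 3mo mean, and of 0.346 to 0.529 at single times.

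In the 12mo mean, 32 of 44 collagens had fold changes above 0 (log2), with a median of 0.096, against 49.1% of all genes and a median of -0.001. All 8 basement membrane chains were positive (median 0.148), as were 7 of 11 fibrillar (0.026) and 17 of 25 other chains (0.067). The smallest p was that of Col6a5, an alternative chain of type VI collagen, with 2.20 ± 0.54 in AD (n = 19) and 1.67 ± 0.55 in Ctrl libraries (SD, n = 18). Its fold change was 0.28 (log2, SE 0.087) with an adjusted p of 0.148 by limma, and 15 of 19 AD libraries were higher than the Ctrl mean of the same time. Col17a1 followed, with 1.24 ± 1.20 in AD and 0.50 ± 0.52 in Ctrl libraries (0.47, SE 0.19, adjusted p = 0.254), and then Col14a1, a chain that decorates fibrils, with 2.51 ± 0.89 in AD and 1.91 ± 0.65 in Ctrl (0.26, SE 0.11, adjusted p = 0.269). All 14 choroid plexus markers had positive fold changes in the same comparison (median 0.79, 0 called), and 4 of 12 fibroblast markers did (median -0.05). The summed choroid plexus level ran from 488.4 to 14708 in AD and from 345.3 to 8511 in Ctrl libraries of the 12mo cohort. Their part in the collagen values was not tested. Fits with a marker covariate also called no collagen, which cannot show that part, because none was called without the covariate.

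At single times of the 12mo cohort the leading genes changed. At 1 mpi they were Col6a3, a main chain of type VI, with 7.75 ± 3.56 in AD and 4.67 ± 0.61 in Ctrl libraries (log2 fold change 0.51, SE 0.22, adjusted p = 0.343), Col17a1 (0.77, adjusted p = 0.380) and Col6a5 (0.34, adjusted p = 0.395). At 3 mpi they were Col12a1, with 10.2 ± 2.7 in AD and 14.04 ± 1.74 in Ctrl (-0.45, SE 0.17, adjusted p = 0.995), Col22a1 (-0.41) and Col6a5 (0.37). All 6 AD libraries at 3 mpi lay below the Ctrl mean for Col12a1 and for Col22a1. At 5 mpi they were Col4a6, with 3.73, 5.21 and 6.20 in AD (lowest, median and highest) and 2.84, 3.49 and 4.50 in Ctrl libraries, Col14a1 (0.36) and Col6a4 (0.57). For Col4a6 all 7 AD libraries exceeded the mean of the Ctrl libraries (0.42, SE 0.16), the groups overlapped, and the adjusted p was 0.464.

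In the 3mo cohort the signs differed by time. The mean of the 3 times had 7 of 44 positive (median -0.067), 1 mpi had 15 (median -0.077), 3 mpi had 36 (median 0.136) and 5 mpi had 8 (median -0.319). Many members moved together between libraries, so their signs are not independent, here or in the other counts of signs. The smallest p of the mean was that of Col11a2, with 19.8 ± 4.1 in AD (n = 14) and 21.7 ± 3.1 in Ctrl libraries (n = 15), a fold change of -0.18 (SE 0.083, unadjusted p = 0.0385, adjusted p = 1), followed by Col22a1 (-0.18) and Col4a5 (-0.20). At 1 mpi Col6a4 (-0.56), Col4a2 (-0.22) and Col4a1 (-0.21) had the smallest p, each with an adjusted p of 0.916. At 3 mpi they were Col22a1 (-0.25), Col13a1 (0.30) and Col7a1 (0.30), each at 0.961.

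Of the 8 comparisons of AD with Ctrl libraries, the median furthest from 0 was that at 5 mpi in the 3mo cohort, between 3 AD and 5 Ctrl libraries. There 12 of 44 genes were lower in AD at an unadjusted p under 0.05 and 0 higher, against 4.62% of all genes in either direction. The 8 basement membrane chains had a median of -0.682, fibrillar chains of -0.306 and the others of -0.204. Col4a5 had 4.61, 4.93 and 10.5 in AD, against 9.43, 9.85, 11.9, 12.2 and 12.6 in Ctrl libraries. For Col4a5, 2 AD libraries lay below every Ctrl library and the third among them (fold change -0.74, SE 0.21, unadjusted p = 0.0017, adjusted p = 1). Col18a1 had 4.16, 4.71 and 12.4 in AD, against 11.1, 11.5, 12.3, 14.5 and 17.2 in Ctrl (-0.94, SE 0.29, unadjusted p = 0.0033, adjusted p = 1). Col11a2 averaged 16.0 ± 2.7 in AD and 22.4 ± 3.0 in Ctrl libraries (-0.46). In the same libraries 0 of 14 choroid plexus markers (median -1.63), 0 of 12 fibroblast markers (median -0.95) and 1 of 10 mural markers (median -0.46) had a positive fold change. The summed choroid plexus level was 271.6 to 1365 in these AD and 359.9 to 6351 in the Ctrl libraries. The part of these markers in the result was not tested. Here too no collagen was called with or without a marker covariate, so these counts cannot show it.

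Between the cohorts, 38 of 44 collagens had a more positive AD effect in 12mo than in 3mo mice (median difference 0.144, against 0.001 for all genes). The smallest p were those of Col14a1 (difference 0.45, SE 0.17), Col9a3 (1.00, SE 0.43) and Col17a1 (0.62, SE 0.28), each with an adjusted p of 0.866 by limma. The choroid plexus list moved the same way (14 of 14, median 1.39).

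**Figure D4:**
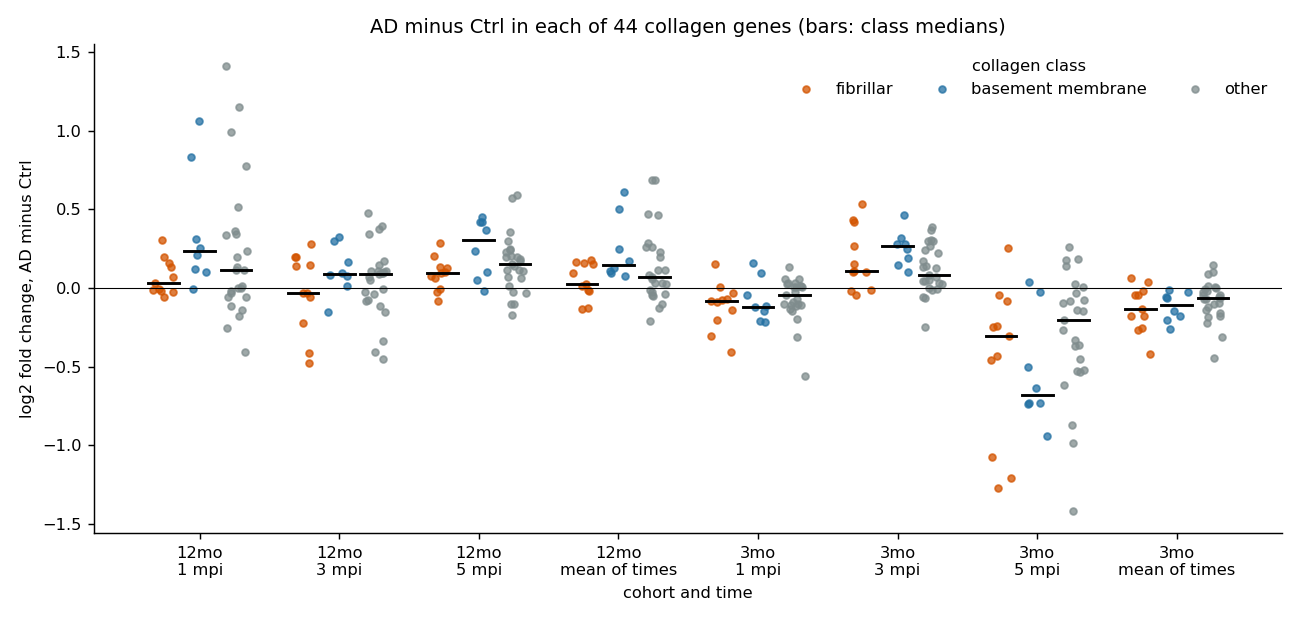
Log2 fold change, AD minus Ctrl, of each of the 44 collagen genes by class (points; black bars are class medians) in the 12mo cohort (left) and the 3mo cohort (right), at 1, 3 and 5 mpi and in the mean of the times. No point passed the adjusted threshold; the basement membrane median is 0.148 in the 12mo mean and -0.682 at 5 mpi in the 3mo cohort.

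Over time after injection, 6 collagens were called lower in 3mo AD libraries at 5 relative to 1 mpi, 1 in 3mo Ctrl libraries at each of 5 and 3 mpi relative to 1 mpi, and 0 in 3mo AD libraries at 3 relative to 1 mpi or in the 12mo cohort. The comparisons of 3 and of 5 with 1 mpi share the libraries at 1 mpi, and the 3 AD libraries of the 3mo cohort at 5 mpi also enter the comparison with Ctrl libraries given above. In 3mo AD libraries 6 of 44 fell at 5 mpi relative to 1 mpi and 0 rose, where 5.69% of all genes passed (3.70% fell and 1.99% rose). They were both type VIII chains (Col8a1, Col8a2), Col9a3, and the type IV chains Col4a3, Col4a4 and Col4a5. Col8a1 had 1.71, 4.20 and 4.50 at 5 mpi, against a lowest, median and highest value of 1.82, 32.3 and 45.1 at 1 mpi. All 3 libraries at 5 mpi were low, as was 1 of the 6 at 1 mpi, so that the groups overlapped in that library. The log2 fold change was -2.33 (SE 0.62, adjusted p = 0.0273). Col9a3 had 8.29, 9.23 and 13.3 at 5 mpi, against 11.7, 46.2 and 65.4 at 1 mpi (-1.74, SE 0.40, adjusted p = 0.0128). Col8a2 had 3.47, 4.73 and 5.48, against 3.09, 26.1 and 34.7 (-1.77, SE 0.49, adjusted p = 0.0308). Col4a3 had 0.586, 0.678 and 0.844, against 0.555, 4.71 and 6.27 (-1.40, SE 0.39, adjusted p = 0.0340), and its partner Col4a4 averaged 1.36 ± 0.45 at 5 mpi and 5.16 ± 2.37 at 1 mpi (-1.28, SE 0.33, adjusted p = 0.0233). Col4a5, which pairs with them in the glomerular network, averaged 6.68 ± 3.30 and 12.2 ± 3.5 (-0.82, SE 0.21, adjusted p = 0.0195).

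In that comparison 13 of 14 choroid plexus markers were also called lower (median -2.79), and their summed level was 271.6 to 1365 at 5 mpi and 431.0 to 11552 at 1 mpi. With the choroid plexus score as a covariate the fold changes were 0.08 for Col8a1, 0.04 for Col8a2, 0.01 for Col4a3, -0.14 for Col4a4, -0.20 for Col9a3 and -0.58 for Col4a5, none of them called. Of the fibrillar genes, 2 were called lower in that fit instead, Col27a1 (-1.81, adjusted p = 0.0272) and Col5a3 (-0.97, adjusted p = 0.0322). Replicate 3 of the AD group at 1 mpi had the lowest choroid plexus sum of that group (431.0, against 3149 to 11552) and the highest Col27a1 and Col5a3 (48.4 and 9.17, against at most 9.40 and 4.97 in the other 5 libraries), and its part in these 2 calls was not tested. The count rests on few libraries: without replicate 1 of the 5 mpi AD group 0 collagens were called, and without replicate 3 there was 1. Without replicate 4 or replicate 1 of the 1 mpi AD group there were 2 and 3. Without the 4 libraries of the 3mo cohort with the highest Inhba, all at 1 mpi, 11 were called.

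Genes that serve collagen also passed in 3mo AD libraries at 5 relative to 1 mpi. Of 29 genes for folding, cutting and cross-linking collagen, 8 fell at 5 mpi and 0 rose, where 3.70% of all genes fell. They included Serpinh1, the collagen chaperone, with 17.2 ± 4.8 at 5 mpi and 31.7 ± 7.9 at 1 mpi (log2 fold change -0.84, adjusted p = 0.0096), the cross-linking oxidases Loxl2 (-0.84) and Loxl1 (-0.83), and the prolyl hydroxylases P4ha3 (-0.75) and P3h2 (-0.56). Of 9 collagen receptors tested, the receptor kinase Ddr1 (-0.48) and the integrin subunit Itgb1 (-0.36) fell. Of 15 basement membrane partners Nid2 fell (-1.14), and of 15 proteases and inhibitors of matrix degradation the membrane protease Mmp14 fell (-0.80). The median over the 29 processing genes was -0.22 and over all genes tested 0.01. The count of processing genes called lower was 1 with the choroid plexus covariate and 9 with the fibroblast covariate, beside the 13 of 14 choroid plexus markers called lower there. It was 5 with no filter, 0 with only the groups compared, and 10 without the 4 libraries highest in Inhba. It also rested on single libraries: 0 were called without replicate 1 or without replicate 3 of the 5 mpi AD group.

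In 3mo Ctrl libraries 1 collagen fell at 5 mpi relative to 1 mpi, where 9.19% of all genes passed and 4.06% fell. Col5a3, a minor chain of type V collagen, had 2.38, 2.64, 3.04, 3.26 and 3.50 at 5 mpi, against 3.98, 4.17, 5.14, 5.39 and 5.84 at 1 mpi. The groups did not overlap (-0.57, SE 0.18, adjusted p = 0.0441). The adjusted p was 0.0914 without the 4 libraries with the highest Inhba, and the call was also lost without any 1 of replicates 1, 3 and 4 of the 1 mpi group or of replicates 1, 3, 4 and 5 of the 5 mpi group. In the same comparison 1 of 14 choroid plexus markers was called lower (median -1.51) and 2 of 12 fibroblast markers higher (median 0.86). At 3 mpi relative to 1 mpi, Col4a1 fell in 3mo Ctrl libraries, where 1.80% of all genes passed and 0.701% fell. It had 33.8, 36.4, 36.6, 37.5 and 40.8 at 3 mpi, against 45.3, 55.1, 66.1, 70.8 and 83.2 at 1 mpi, again with no overlap (-0.75, SE 0.15, adjusted p = 0.0125). No choroid plexus or fibroblast marker was called there (medians 0.51 and 0.18). Without the 4 libraries with the highest Inhba the fold change of Col4a1 was -0.59 and its adjusted p 0.0914. DESeq2 also called Col4a2 lower (-0.54, adjusted p = 0.0200). In 3mo AD libraries at 3 relative to 1 mpi 0 of 44 passed, against 0.586% of all genes, with 5 at an unadjusted p under 0.05. The smallest p were those of Col6a4 (0.90), Col6a5 (0.41) and Col4a1 (-0.35). Of the processing genes, P4ha1 (-0.46) and Plod1 (-0.34) were called lower and Colgalt1 (0.21) higher in 3mo Ctrl libraries at 5 relative to 1 mpi.

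In the 12mo cohort no collagen passed between times by limma. In AD libraries, 0 of 44 were called at 5 relative to 1 mpi (0.762% of all genes, 1 collagen at an unadjusted p under 0.05) and 0 at 3 relative to 1 mpi (0.832%, 7 collagens unadjusted). The smallest p at 3 relative to 1 mpi was that of Col3a1, with 6.78 ± 1.97 at 3 mpi and 17.0 ± 9.4 at 1 mpi (SD, n = 6 each; -1.02, SE 0.33, adjusted p = 0.137 by limma), followed by Col1a1 (-0.71) and Col13a1 (0.38). At 5 relative to 1 mpi the leading genes were Col6a3 (-0.50), Col8a1 (-1.31) and Col3a1 (-0.58). In Ctrl libraries 0 of 44 were called at 5 relative to 1 mpi (0.0249% of all genes, 3 collagens unadjusted), led by Col4a6 (-0.38), Col2a1 (0.26) and Col3a1 (-0.69). At 3 relative to 1 mpi 0 were called (0.0199%, 2 unadjusted), led by Col22a1 (0.42), Col11a2 (0.34) and Col28a1 (-0.23). DESeq2 called Col3a1 (-1.33, adjusted p = 0.0278) in AD libraries at 3 relative to 1 mpi and no collagen in the other 3 comparisons. In AD libraries 0 of 14 choroid plexus markers had a positive fold change at 3 relative to 1 mpi (median -1.60, 0 called) and 0 at 5 relative to 1 mpi (median -1.39, 0 called). Their part in these values was not tested beyond the fits with a marker covariate, whose counts are given further on. Among the genes that serve collagen, Mmp3 was called lower in AD libraries at 5 relative to 1 mpi (-0.74), and Mmp14 (-0.55) and Plod3 (-0.21) at 3 relative to 1 mpi.

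Between the cohorts, 11 of 44 collagens passed in Ctrl libraries and 2 of 44 in AD libraries. The cohorts are separate tables, so that age and any difference in handling between the tables cannot be told apart. For this comparison reads recovered from both tables were scaled together, so levels differ slightly from the deposited ones. In Ctrl libraries 10 of 44 collagens were lower in 12mo (n = 18) than in 3mo mice (n = 15) and 1 was higher, where 20.7% of all genes passed and 10.7% were lower. Of the 10, 3 were type IV chains: Col4a3, with 1.45 ± 1.35 in 12mo and 3.24 ± 1.64 in 3mo libraries (-0.86, adjusted p = 0.0155), Col4a4 (2.46 ± 1.61 and 4.64 ± 1.94, -0.73, adjusted p = 0.0215) and Col4a2 (39.9 ± 8.4 and 49.6 ± 10.9, -0.30, adjusted p = 0.0115). Col8a1 averaged 13.3 ± 12.2 in 12mo and 25.1 ± 13.5 in 3mo libraries (-1.08, adjusted p = 0.0451), and Col9a3 19.8 ± 14.9 and 39.4 ± 16.5 (-1.08, adjusted p = 0.0062). Col17a1 averaged 0.50 ± 0.51 and 1.54 ± 0.83 (-0.75, adjusted p = 0.0035). Smaller falls were found for Col11a1, a fibrillar chain (-0.43, adjusted p = 0.0406), Col6a3 (-0.42, adjusted p = 0.0240), Col14a1 (-0.38, adjusted p = 0.0169) and Col26a1 (-0.22, adjusted p = 0.0448). The gene that rose was Col6a6, an alternative chain of type VI, with 1.49 ± 0.32 in 12mo and 1.08 ± 0.42 in 3mo libraries (0.27, SE 0.095, adjusted p = 0.0371), and 16 of 18 12mo libraries above the 3mo mean of the same time.

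Of these 11 genes, 5 (Col4a3, Col4a4, Col8a1, Col9a3 and Col17a1) are among the 6 that followed choroid plexus markers between libraries. In the same comparison 14 of 14 choroid plexus markers were called lower (median -1.37) and 5 of 12 fibroblast markers higher (median 0.42). With the choroid plexus score as a covariate, 3 collagens were called: Col11a1 (-0.50), Col4a2 (-0.29) and Col6a6 (0.35). With the fibroblast score as a covariate, 25 were called, all lower. With both scores 11 were called lower, among them the fibrillar genes Col1a1 (-0.60), Col1a2 (-0.46) and Col3a1 (-0.51), whose fold changes without a covariate were 0.03, 0.20 and 0.18 (adjusted p = 0.930, 0.585 and 0.645).

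Col4a2, a chain of the general basement membrane network, had 31.2, 34.7, 44.6, 44.9 and 49.6 in 12mo Ctrl libraries at 1 mpi, against 43.1, 52.5, 65.4, 65.6 and 69.6 in 3mo Ctrl libraries at the same time. At 5 mpi the lowest, median and highest values were 28.7, 35.4 and 55.5 in 12mo Ctrl libraries, against single values of 37.9, 42.0, 47.3, 52.3 and 56.3 in 3mo Ctrl libraries. The cohorts overlapped at both times. Over all 3 times, 4 of 18 12mo libraries lay above the 3mo mean of the same time.

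**Figure D5:**
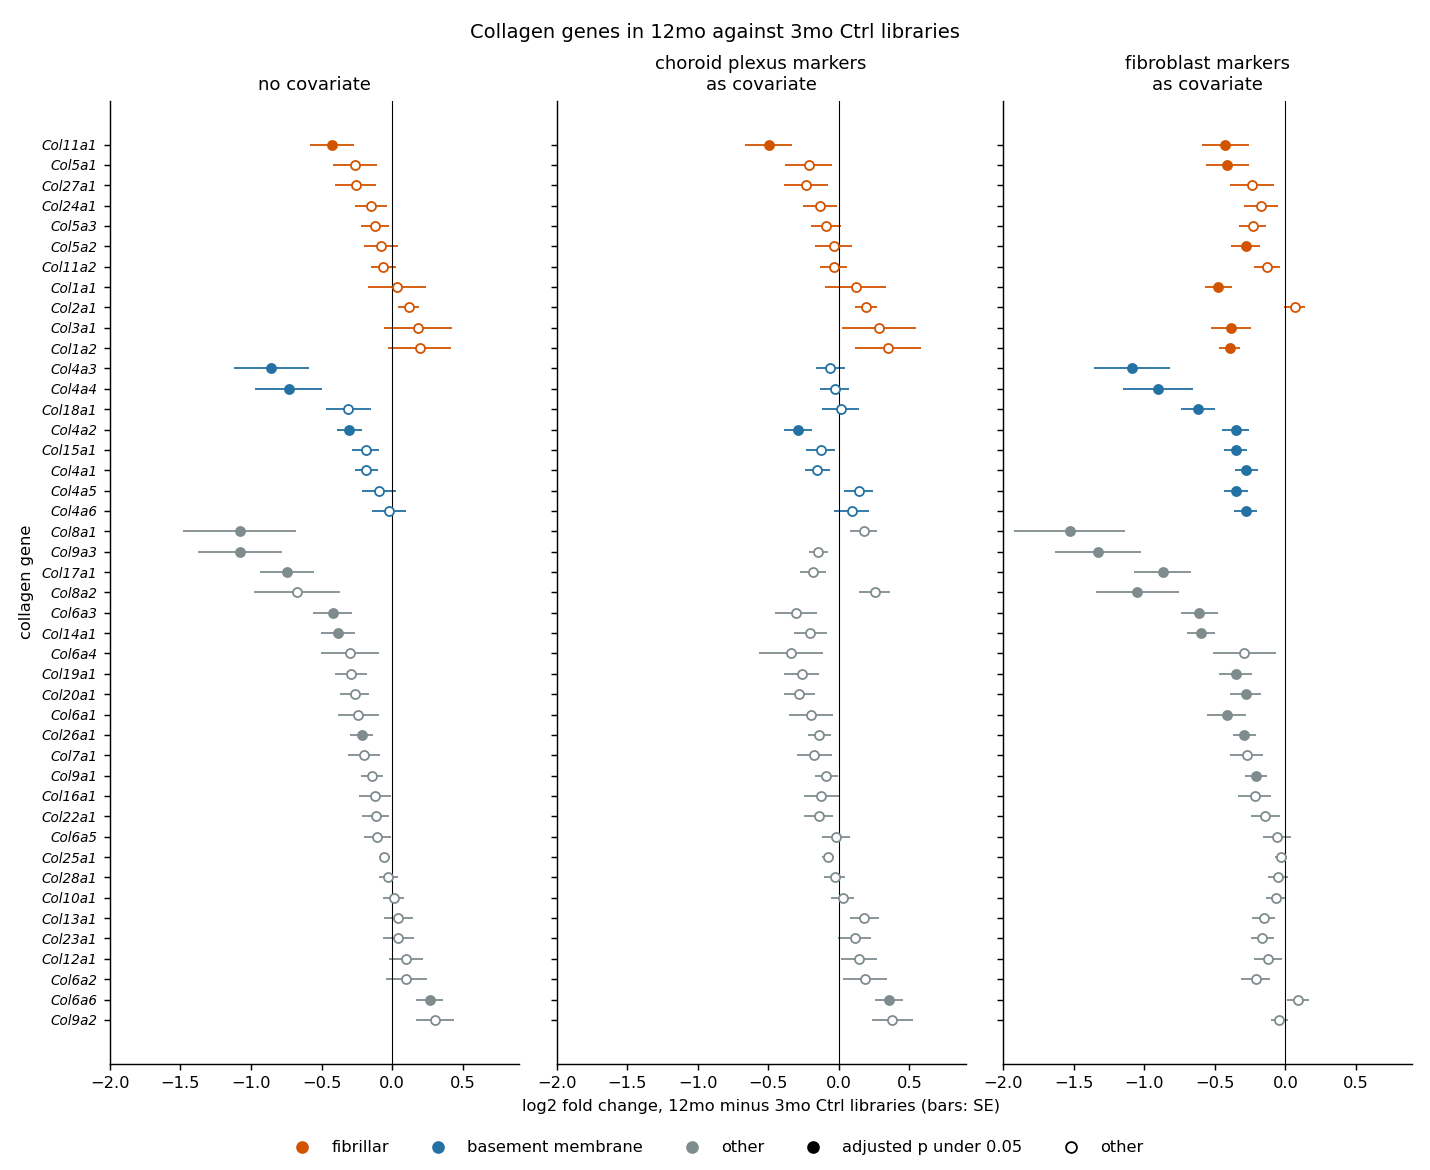
Log2 fold change, 12mo minus 3mo Ctrl libraries, of the 44 collagen genes (points with SE) by class, without a covariate (left), with the choroid plexus score (middle) and with the fibroblast score (right) as a covariate; filled points had an adjusted p under 0.05. Of 11 filled points on the left, Col11a1, Col4a2 and Col6a6 are filled in the middle, and 25 points are filled on the right.

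In AD libraries the called collagens were type VI and type IX chains. Of 44 collagens 2 were higher in 12mo (n = 19) than in 3mo mice (n = 14) and 0 lower, where 20.2% of all genes passed and 10.2% were higher. Col6a6 had 1.54 ± 0.52 in 12mo and 0.96 ± 0.35 in 3mo libraries (0.39, SE 0.098, adjusted p = 0.0021), with 17 of 19 12mo libraries above the 3mo mean of the same time. Col9a2, a chain of type IX, had 6.27 ± 1.59 and 4.70 ± 2.02 (0.38, SE 0.14, adjusted p = 0.0449). In AD libraries 0 of 14 choroid plexus markers were called and 8 of 12 fibroblast markers were higher (median 0.59). With the fibroblast score as a covariate the fold change was 0.18 for Col6a6 and -0.05 for Col9a2, neither called. Col6a6 was thus called higher in 12mo mice under either extract. The difference between the extracts in this comparison is the difference of AD effects given above, in which no collagen passed.

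Some genes that serve collagen were also called between the cohorts, where 20.7% of all genes passed in Ctrl and 20.2% in AD libraries. In Ctrl libraries 5 of 15 basement membrane partners were lower in 12mo than in 3mo mice and 0 higher, where 10.7% of all genes were lower, namely the laminin chains Lama5 (-0.59) and Lamb1 (-0.15), the nidogen Nid2 (-0.56), and the heparan sulfate proteoglycans Hspg2 (-0.46) and Agrn (-0.30). Of 29 processing genes 5 were lower and 0 higher: Pcolce2 (-0.67), Loxl4 (-0.31), Bmp1 (-0.28), Adamts3 (-0.26) and Plod1 (-0.25). In the same comparison 14 of 14 choroid plexus markers were lower (median -1.37) and 5 of 12 fibroblast markers higher (median 0.42). With the choroid plexus covariate 2 partners (Agrn and Lama5) and 3 processing genes were called lower, and 2 processing genes (Lox and Loxl2) higher. With the fibroblast covariate 11 partners and 13 processing genes were lower and 0 higher. Ddr1 was lower (-0.37; 63.7 ± 6.5 in 12mo and 83.2 ± 8.9 in 3mo libraries, adjusted p = 2.81e-07) and Lair1, an inhibitory collagen receptor of immune cells, higher (0.17). The proteases Mmp15 (-0.41) and Mmp16 (-0.24) were lower. Of 9 receptors 1 was thus lower and 1 higher, and of 15 genes of matrix degradation 2 were lower. In AD libraries Agrn (-0.27), Ddr1 (-0.16), Mmp16 (-0.27), Mmp17 (-0.15) and 5 processing genes (Adamts3, Bmp1, Adamts14, Plod1 and Plod3) were lower. Lair1 (0.24), Itgb1 (0.19) and Mmp12 (0.46), the macrophage elastase, were higher.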

How the data were processed

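RNA of mouse hippocampus was sequenced after poly(A) selection and random priming, per the labels' protocols, in 29 libraries of the 3mo and 37 of the 12mo cohort. STAR, Picard, edgeR and the build GRCm38 are named in the submitters' processing notes, without versions. The deposited values are a normalized signal per gene and library: scaled RPM (reads normalized to library size), with scaling factors of 0.957 to 1.042. All values came out as whole reads within 0.01 reads when multiplied back, which gave the depth of each library and counts for alternatives. The smallest chi-square per degree of freedom between replicates of a group was 5.44, so no 2 libraries of the same group agreed within sampling noise. Libraries of different groups were not compared in this way. No per-sample column was left out.

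Genes were filtered with edgeR's filterByExpr (edgeR 4.0.16) on the recovered reads, and log2(value + 1) was tested with limma 3.58.1 (trend, R 4.3.3) over all groups of a cohort, with Benjamini-Hochberg adjustment over 20084 (12mo) or 19976 (3mo) genes and a threshold of 0.05. Fold changes are on that log2 scale, which understates changes of low genes. Comparisons of the cohorts used the recovered reads of both, scaled together by TMM, over 21297 genes. Fold changes over several times weight each time equally, while the means and SD beside them weight each library equally. The code was checked on simulated data. Marker relations used 100000 permutations, two-sided. Levels per kilobase use exon lengths of the GENCODE annotation of GRCm38.

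The members and lists were chosen with earlier results of these data known. Genes named are the called members (the 10 with the largest change where there were more), otherwise the 3 with the smallest p, and up to 5 called genes of each other list; Col1a1, Col1a2, Col3a1, Col4a1, Col4a2, Col6a1, Col8a1, Col18a1 and Col25a1 were to be followed by library. Where the text names more than that, the genes were chosen after their values were seen. The comparisons of 3 with 1 mpi, the counts of the other lists under alternatives, the fit with both marker scores, and the fits without the 4 libraries with the highest Inhba or the 2 with the highest thalamus markers were added after the data were seen. Other alternatives were edgeR, DESeq2 1.42.0, other filters, pseudocount, scaling and covariates, a replicate block and leaving out each library. Deviations of same-numbered libraries had r from -0.39 to 0.635 over 71 pairs, 23 over 0.1. Differently numbered libraries were not compared, so these r cannot settle whether the numbers pair libraries.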

Additional observations from a re-analysis of the deposited data

Results flagged for a closer look

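In a screen of 23 collagen genes in groups of 4 to 10 libraries, 253 sets in all, 24 had 1 library far from the rest of its group by Dixon's test. Chance flags about 1 in 20 sets of normally distributed values. The count of 24 cannot be set against that share. The levels were not log-transformed, several of the genes moved together, and Col27a1 was added to the screen after its values were seen. Values are scaled RPM, with the nearest other library of the group after each.

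The type I and III genes stood apart together in replicate 1 of the 3mo AD group at 1 mpi, with 53.5 for Col1a1 (23.8 in the nearest library), 104.1 for Col1a2 (33.9) and 33.1 for Col3a1 (13.7). This library also had the highest thalamus score.

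Genes that followed choroid plexus markers stood apart in replicate 5 of the 12mo Ctrl group at 3 mpi, with 43.4 for Col8a1 (13.4 in the nearest library), 5.09 for Col4a3 (1.35), 7.34 for Col4a4 (2.88) and 1.54 for Col17a1 (0.262), and Col27a1 was at 9.68 there (6.29). In replicate 3 of the 12mo AD group at 3 mpi Col4a3 was at 10.1 (3.67). In replicate 3 of the 3mo AD group at 3 mpi Col4a3 was at 12.1 (5.57), Col4a4 at 13.3 (6.36) and Col8a2 at 51.3 (30.3). In replicate 2 of the 3mo Ctrl group at 3 mpi Col8a1 was the lowest at 15.8 (35.9).

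Minor fibrillar genes stood apart in replicate 3 of the 3mo AD group at 1 mpi, with 48.4 for Col27a1 (9.40) and 9.17 for Col5a3 (4.97), and replicate 3 of the 3mo Ctrl group at 1 mpi had 20.3 for Col27a1 (8.94). Both libraries were among the 4 with the highest Inhba. In replicate 6 of the 12mo AD group at 5 mpi Col27a1 was at 8.60 (6.58) and Col5a3 at 5.65 (3.80), and in replicate 3 of the 12mo Ctrl group at 3 mpi Col5a3 was the lowest at 3.15 (3.76).

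Other single values were 4.91 for Col14a1 in replicate 3 of the 12mo AD group at 1 mpi (2.83), 7.57 for Col6a3 in replicate 6 of the 12mo AD group at 3 mpi (5.42) and 8.06 for Col6a3 in replicate 1 of the 12mo Ctrl group at 5 mpi (4.38). Col25a1 was lowest at 90.9 in replicate 4 of the 12mo Ctrl group at 3 mpi (107.6) and at 88.8 in replicate 2 of the 12mo Ctrl group at 5 mpi (103.1).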

How the results depend on the processing

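No setting called a collagen between AD and Ctrl libraries, and leaving out any single library gave 0 to 0 in each of those comparisons. Of 602 counts under alternatives, 530 stayed within 1.5 times the count reported, and 72 did not. The 602 include the 316 fits of AD comparisons, where 0 stood against 0 and was taken as unchanged. These make up most of the 530. The causes were not tested.

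For 3mo AD libraries at 5 relative to 1 mpi, 6 collagens were called. The count was 3 with no filter or without the 2 libraries highest in thalamus markers, 0 with only the groups compared, 2 with a replicate block or the choroid plexus covariate, 13 with the fibroblast covariate, 11 without the 4 libraries highest in Inhba, 12 by DESeq2, and 0 to 9 without single libraries. For 3mo Ctrl libraries at 5 relative to 1 mpi, 1 was called, and 0 with no filter, a replicate block, or without the thalamus or Inhba libraries. It was 7 with the fibroblast, 3 with the choroid plexus and 10 with both covariates, 2 by DESeq2 and 0 to 2 without single libraries. For 3mo Ctrl libraries at 3 relative to 1 mpi, 1 was called, against 3 with the fibroblast and 4 with both covariates, 0 without the Inhba libraries, 2 by DESeq2 and 1 to 2 without single libraries, and in 3mo AD libraries 0, against 2 with the fibroblast and 3 with both covariates.

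In the 12mo cohort 0 were called between times. With the fibroblast or both covariates the count was 2 for AD libraries at 5 relative to 1 mpi and 2 for Ctrl libraries at 3 relative to 1 mpi. For AD libraries at 3 relative to 1 mpi it was 3 with the fibroblast and 4 with both covariates and 1 by DESeq2. Without replicate 2 of the 1 mpi AD group it was 1 at 5 and 2 at 3 relative to 1 mpi (ranges 0 to 1 and 0 to 2).

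For Ctrl libraries, 12mo against 3mo, 11 were called, against 7 with no filter or by edgeR, 25 with the fibroblast and 3 with the choroid plexus covariate, and 7 to 12 with a library left out, fewest for replicate 2 of the 3mo Ctrl group at 5 mpi. For AD libraries 2 were called, against 1 with no filter, only the groups compared, a replicate block or edgeR, 4 with a stricter filter, the fibroblast, both or the sex covariate, 5 with the choroid plexus covariate, and 1 to 5 without single libraries. Whether the replicate numbers pair the libraries was not settled, and the block moved no other count.

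Of 2105 values of named genes, 1901 kept direction and side of the threshold, 184 lost their call, 12 gained one and 8 changed sign. In 3mo AD libraries at 5 relative to 1 mpi these were Col8a1 (0.079), Col8a2 (0.036) and Col4a3 (0.0070) with the choroid plexus covariate, and Col8a1 (0.0054) and Col4a3 (0.011) with both. Between the cohorts they were Col9a2 in AD libraries (-0.047 with the fibroblast, -0.064 with both covariates) and Col8a1 in Ctrl libraries (0.18 with the choroid plexus covariate). Of the 96 marker relations 45 passed, and 46 on recovered reads with a pseudocount of 0.1: 41 passed in both, 4 were lost (Col25a1 with 3 lists and Col8a1 with endothelial markers, all in 3mo libraries) and 5 gained. Among those gained was Col4a2 with endothelial markers in 12mo libraries. Depth limits the lowest genes: Col10a1, Col24a1 and Col28a1 were at 0 reads in some libraries.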
